A study of Mus musculus with 31 samples.

Results

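Retinas of Rorb-null mice (Rorb-/-) were compared between postnatal day 14 (P14), about the time of eye opening, and postnatal day 28 (P28), when the wild-type retina is close to mature. The samples were chosen by their labels: 4 arrays of P14 Rorb-/- and 4 of P28 Rorb-/-, which are 8 of the 31 arrays of the study. Each array carried total RNA of both retinas of 1 mouse, so the 4 arrays of a group are 4 mice. The same age step was set beside it in wild-type mice (+/+, 4 arrays at P14 and 4 at P28) and in Rorb-/-;CrxpNrl mice (4 arrays at P14 and 4 at P28), which lack Rorb and carry a transgene that expresses Nrl from the Crx promoter, active in photoreceptor precursors and photoreceptors. The labels give neither sex nor strain. The remaining groups, +/+;CrxpNrl at each age, entered only the estimate of the spread.

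Rorb encodes the orphan nuclear receptor RORβ, which acts upstream of Nrl in the precursors that become rods. Nrl, a leucine zipper transcription factor, drives the rod program, and without it precursors take on cone features with abundant S opsin. RORβ is also needed for horizontal and amacrine cells to form. Between eye opening and the end of the first postnatal month photoreceptor outer segments lengthen, synapses mature and growth-related neuronal genes are shut down.

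The values deposited by the authors are log2 signals from RMA, a method that corrects, normalizes and summarizes the probes of an Affymetrix array, so a difference of 1 is 2-fold. A difference given here is the P28 mean minus the P14 mean, and the value after ± is its standard error in the limma fit over all arrays (n = 4 arrays in each group). An adjusted p is Benjamini-Hochberg adjusted over 18193 genes, and "rose" or "fell" is used for genes at adjusted p under 0.05. Array medians of the 8 Rorb-/- arrays lay between 5.86 and 5.89, lower quartiles between 3.98 and 4.03 and maxima between 14.2 and 14.3. Arrays correlated at 0.99 to 0.992 within P14, 0.987 to 0.992 within P28 and 0.983 to 0.99 between the ages. Rorb itself averaged 9.82 at P14 and 9.57 at P28 in Rorb-/- retina, against 10.97 and 10.58 in +/+. Which part of the gene the allele removes is not given in the sources used here, so this signal is a weak check of the genotype. The retinal identity of the samples was borne by the markers of Müller glia (Rlbp1 11.64 and Glul 12.70 at P14) and of cones (Opn1sw 13.45), while the amacrine marker Tfap2b was at 6.28 against 10.83 in P14 +/+ retina. Among markers of cells outside the neural retina, Alas2 of red blood cells (4.45) and Mog of oligodendrocytes (2.77) lay near or below the lower quartile, Mbp of oligodendrocytes was at 8.07 to 8.31 on the P14 arrays, and lens markers were high in some arrays, as described further on. In RNA of whole retinas, fewer cells of a type and less RNA per cell cannot be told apart.

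Between P14 and P28, 17 of 23 listed genes of immature neurons fell and 10 of 17 listed circadian clock genes rose in Rorb-/- retina. The M opsin gene Opn1mw, the water channel gene Aqp4, the carbonic anhydrase gene Car14 and the neuropeptide genes Vip and Tac1 were among the single genes that rose. At adjusted p under 0.05, 2719 of 18193 genes changed (14.9%), 1118 of them higher at P28 (6.15%) and 1601 lower (8.8%). At least 2-fold changes were found for 195 genes (1.07%), 117 higher (0.643%) and 78 lower (0.429%). For 1387 genes (7.62%) every P28 array was above every P14 array, and for 1961 (10.8%) every P28 array was below. The median over all genes was -0.007. Without any 1 of the 8 mice the count of genes changed at least 2-fold ran from 175, without P14 replicate 1, to 248, without P14 replicate 4.

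**Figure D1:**
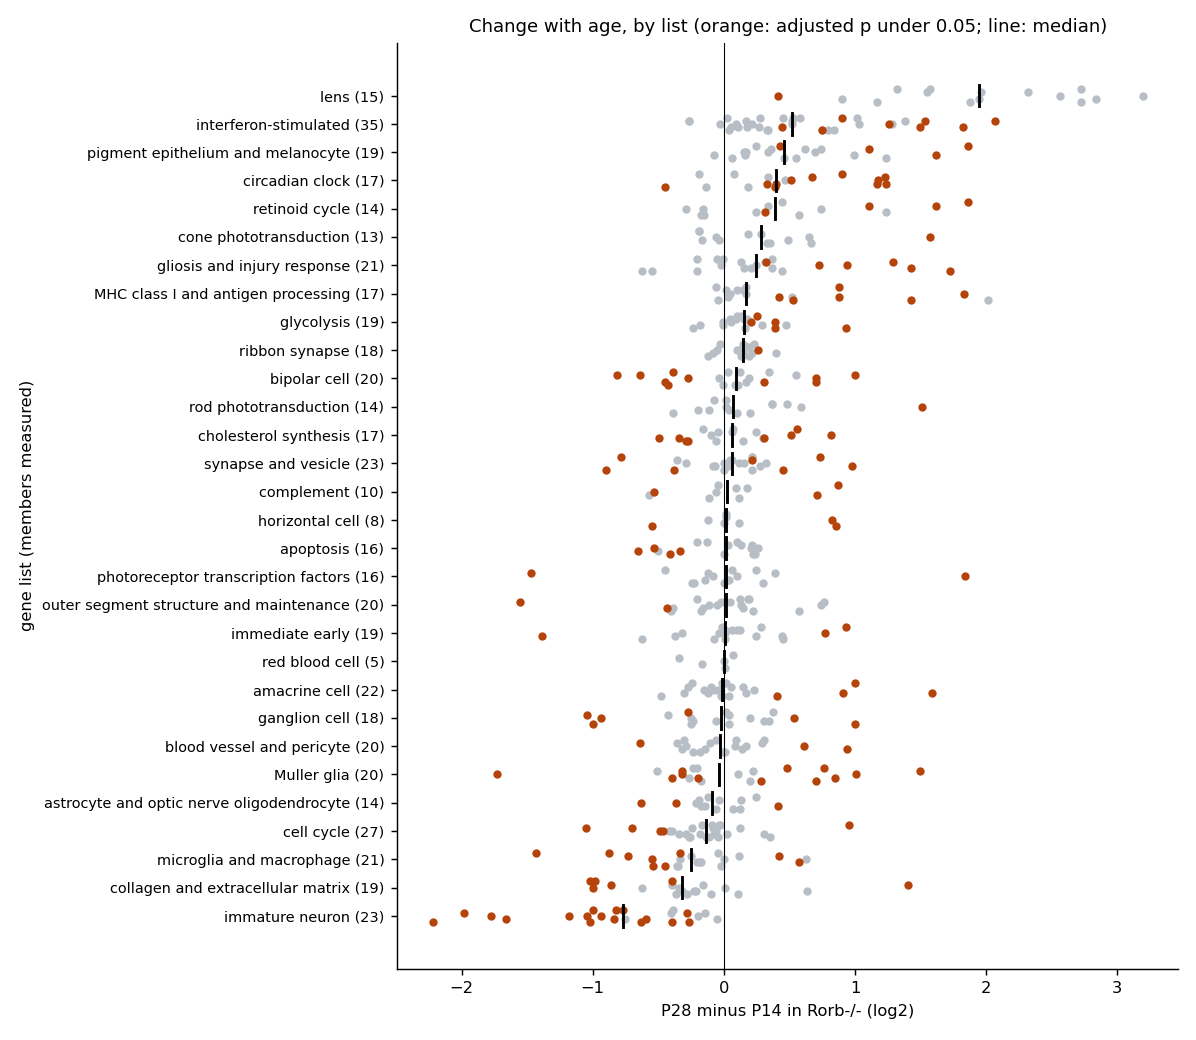
Difference between P28 and P14 Rorb-/- retina (log2, horizontal axis) for each measured member of 30 gene lists (vertical axis, with the number of members measured), ordered by the list median. Orange points passed adjusted p 0.05, grey points did not, and the black line is the median. The immature neuron list lies lowest with a median of -0.77, and the lens list highest with 1.95 although 1 of its 15 members passed.

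Cone genes were already high at P14, and the M opsin gene rose further. Opn1mw, which encodes the middle-wavelength cone opsin, read 10.90, 10.91, 10.41 and 11.40 at P14 and 12.41, 12.59, 12.42 and 12.49 at P28. Every P28 array was above every P14 array, and the rise was 1.57 ± 0.25 (adjusted p = 6.25e-05). In +/+ retina Opn1mw stood at 11.08 and 11.16 at the 2 ages, a difference of 0.08, and the age steps of the genotypes differed by 1.49 ± 0.36 (adjusted p = 0.0194). Of the 13 measured cone phototransduction genes Opn1mw alone rose and none fell, against 6.15% and 8.8% of all genes, and the list median was 0.29. Opn1sw, the S opsin gene, read 13.66, 13.48, 13.13 and 13.53 at P14 and 13.81, 13.73, 13.46 and 13.52 at P28. These values overlapped and are close to the array maxima of 14.2 to 14.3, where the signal has little room to rise. Arr3, which encodes cone arrestin, read 12.32 to 12.63 at P14 and 13.01 to 13.35 at P28, with no overlap between the ages. The difference of Arr3, 0.66 ± 0.43, did not pass in the fit over all groups (adjusted p = 0.357). With only the 8 Rorb-/- arrays in the fit Arr3 passed (adjusted p = 0.00167), as did Gnat2, cone transducin alpha, at 0.29 (adjusted p = 0.0188). Slc24a2, the cone sodium, calcium and potassium exchanger, was 0.65 ± 0.23 higher (adjusted p = 0.0568), and it passed without P14 replicate 4, the highest P14 array, at 0.92 (adjusted p = 0.0034), which made 2 cone genes. Gnb3, the cone transducin beta subunit, was 0.19 lower with no overlap (adjusted p = 0.0992).

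**Figure D2:**
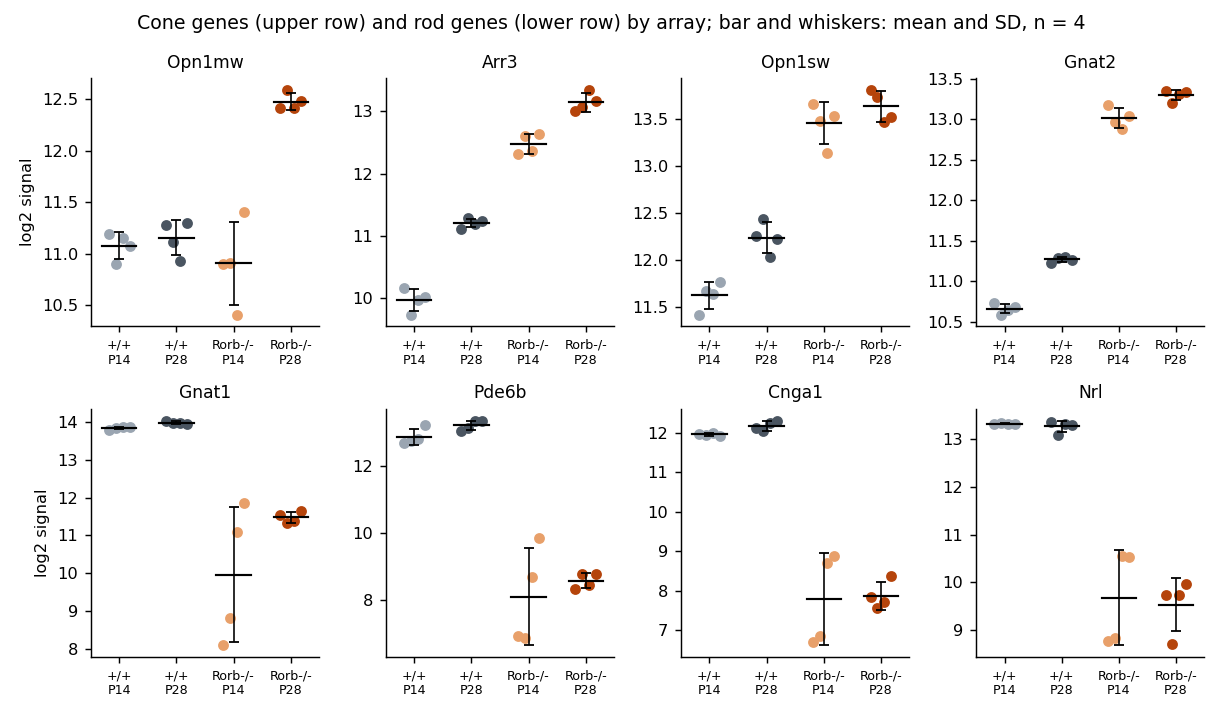
Log2 signal (vertical axis) on each array of P14 and P28 +/+ and Rorb-/- retina for 4 cone genes (upper row) and 4 rod genes (lower row); the axis range differs between panels. Points are mice, and bar and whiskers are the mean and SD of 4. Opn1mw is at 12.41 to 12.59 on the P28 Rorb-/- arrays, above all others, and the P14 Rorb-/- arrays fall into a lower and a higher pair for Gnat1, Pde6b, Cnga1 and Nrl.

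Rod genes differed more between the P14 mice than between the ages. Gnat1, rod transducin alpha, read 8.10, 8.83, 11.08 and 11.85 at P14 and 11.54, 11.33, 11.39 and 11.65 at P28. P14 replicates 1 and 2 lay far below every P28 array, while replicate 3 lay just below and replicate 4 above all of them. The difference of 1.51 ± 0.51 passed (adjusted p = 0.0415), yet it was 0.89 without P14 replicate 1 (adjusted p = 0.234) and 1.13 without P14 replicate 2 (adjusted p = 0.172). Without any 1 of the P28 replicates 1, 2, 3 and 4 the difference was 1.49, 1.56, 1.54 and 1.46 with adjusted p of 0.0844, 0.0627, 0.0685 and 0.0866, so the count of rod genes that rose went from 1 to 0 in 6 of the 8 cases. With only the 8 arrays in the fit the adjusted p was 0.194. Nrl itself read 8.78, 8.84, 10.55 and 10.54 at P14 and 9.74, 8.71, 9.72 and 9.97 at P28, with the same low and high P14 pairs. The P28 values lay between these pairs or below them, and the difference was -0.14 ± 0.40 (adjusted p = 0.876). In +/+ retina Nrl averaged 13.32 at P14 and 13.26 at P28.

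Pde6b and Cnga1 showed the same low and high P14 pairs. Pde6b, a catalytic subunit of rod phosphodiesterase, read 6.95, 6.89, 8.69 and 9.86 at P14 and 8.34, 8.78, 8.44 and 8.77 at P28. Cnga1, the rod channel, read 6.70, 6.84, 8.69 and 8.88 at P14 and 7.84, 7.57, 7.72 and 8.38 at P28. For both genes every P28 array lay above the lower P14 pair and below the highest P14 array, and the differences were 0.48 ± 0.54 for Pde6b and 0.10 ± 0.44 for Cnga1. Pde6a, the alpha subunit, differed by 0.59 ± 0.40 (adjusted p = 0.383). Sag, rod arrestin, which cone-like cells without Nrl also express, did not show the pairs, with 13.54 to 13.69 at P14 and 13.47 to 13.81 at P28. Pde6g, the phosphodiesterase inhibitor, did not either, with 12.43 to 12.61 and 12.48 to 12.63. Of 14 rod phototransduction genes 1 rose and none fell, against 6.15% and 8.8% of all genes, with a median of 0.07. The mean log2 signal of the list was 9.43, 9.55, 10.18 and 10.38 on the P14 arrays and 10.08, 10.002, 10.09 and 10.20 on the P28 arrays, and 11.94 to 12.27 on the +/+ arrays of both ages. The P28 mice were thus close to each other at a level between the P14 extremes.

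Among 16 photoreceptor transcription factors 1 rose and 1 fell, beside 6.15% and 8.8% of all genes. Esrrb, a nuclear receptor that supports rod maintenance, read 5.38, 5.05, 5.97 and 6.48 at P14 and 7.47, 6.70, 8.19 and 7.87 at P28, without overlap. It rose by 1.84 ± 0.40 (adjusted p = 0.00194), still far below +/+ retina at 10.12 and 10.51, and the age steps were not shown to differ (1.45 ± 0.57, adjusted p = 0.198). Samd11, a SAM domain repressor of photoreceptors, read 8.76, 8.58, 8.87 and 8.98 at P14 and 7.18, 7.16, 7.53 and 7.43 at P28, a fall of -1.47 ± 0.29 (adjusted p = 0.000563). Averaged over their probe sets, Esrrb changed by 1.06 and Samd11 by -0.71, both still past the threshold. Crx and Otx2, the homeobox factors of all photoreceptors, differed by 0.04 ± 0.16 and -0.08 ± 0.09, and the cone factors Rxrg and Thrb by 0.03 ± 0.13 and -0.22 ± 0.19. Mef2c, another factor of the list, differed by 0.39 ± 0.33 in Rorb-/- (adjusted p = 0.511) and rose by 2.16 in +/+ (adjusted p = 4.87e-05). Its steps differed by -1.77 (adjusted p = 0.0362), and how this held under the alternatives was not tested.

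Of 20 genes of outer segment structure and maintenance, none rose and 2 fell, beside 6.15% and 8.8% of all genes, with a median of 0.01. Fscn2, a photoreceptor actin-bundling fascin, read 6.31, 5.92, 5.66 and 5.53 at P14 and 4.05, 4.49, 4.41 and 4.26 at P28. All P28 arrays were lower, near the lower quartile of the arrays, and the fall was -1.55 ± 0.22 (adjusted p = 9.65e-06). In +/+ retina Fscn2 went from 8.90 to 9.32, and the steps differed by -1.98 ± 0.31 (adjusted p = 0.000513). Without P14 replicate 4 the list count was 4, 2 in each direction. Prph2, which encodes the disc rim protein peripherin-2, read 5.39, 4.94, 11.04 and 5.08 at P14 and 5.59, 5.42, 11.25 and 5.07 at P28. At each age 1 mouse, numbered 3 in both, was more than 5 log2 units above the other 3, so a group mean of Prph2 describes none of the mice. The +/+ arrays read 7.32, 12.50, 12.61 and 12.71 at P14 and 6.66, 8.05, 8.86 and 7.59 at P28, a spread of several log2 units within the wild type as well.

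Growth-related genes of immature neurons moved in 1 direction. Of 23 such genes none rose and 17 fell, against 8.8% of all genes that fell, and the list median was -0.77. Nnat, which encodes the developmental proteolipid neuronatin, read 11.60, 11.64, 11.51 and 11.26 at P14 and 9.34, 9.53, 9.22 and 9.02 at P28, a fall of -2.22 ± 0.11 (adjusted p = 2.3e-13). Dcx, which encodes the microtubule-binding doublecortin of migrating neurons, read 7.19, 7.40, 7.43 and 6.66 at P14 and 5.54, 4.88, 5.09 and 5.25 at P28, a fall of -1.98 ± 0.18 (adjusted p = 1.53e-08). No P28 array reached the lowest P14 array for either gene. Sox4, a transcription factor of differentiating neurons, read 11.43, 11.46, 11.40 and 11.07 at P14 and 9.59, 9.73, 9.46 and 9.47 at P28, a fall of -1.78 ± 0.14 (adjusted p = 2.37e-09). As the mean of all its probe sets Sox4 fell by -1.10 and Dcx by -1.09, both past the threshold. Tubb2b, a beta-tubulin of young neurons, fell by -1.66 ± 0.22, Dbn1, the actin-binding drebrin, by -1.18 ± 0.14, and Gap43, a growth cone protein, by -1.04 ± 0.13, each without overlap between the ages. The +/+ retina showed the same direction, with 16 of 23 genes lower, none higher and a median of -0.53, where 7.94% of all genes were lower and 5.77% higher. For Dcx the steps differed by -0.95 ± 0.25 (adjusted p = 0.0344), a call lost without any 1 of 9 of the 16 mice compared (-0.85 to -0.94, adjusted p = 0.0622 to 0.0796). Marcksl1, a MARCKS-related actin regulator, was the other member whose steps passed the test, falling less in Rorb-/- (-1.02) than in +/+ (-1.75). Its difference of 0.73 (adjusted p = 0.0377) lost the call without any 1 of 11 of the 16 mice (0.64 to 0.75, adjusted p = 0.0551 to 0.0895). In +/+ retina Nnat changed by -1.91, Sox4 by -1.14 and Tubb2b by -1.73. The mean log2 signal of the list was 9.49 to 9.85 on the P14 Rorb-/- arrays against 9.39 to 9.53 on the P14 +/+ arrays, and 8.88 to 8.93 against 8.72 to 8.83 at P28. Without any 1 mouse 16 to 18 members were called.

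Genes of inner retinal neurons moved in both directions. Of 22 amacrine cell genes 4 rose and none fell, against 6.15% and 8.8% of all genes, with a median of -0.01. Vip, a neuropeptide of a subset of amacrine cells, read 6.44, 6.46, 5.48 and 6.48 at P14 and 8.17, 8.24, 7.81 and 7.01 at P28, a rise of 1.59 ± 0.31 (adjusted p = 0.000593). Gad1, which makes GABA, read 4.95, 5.75, 4.54 and 5.02 at P14 and 5.9, 5.81, 6.44 and 6.12 at P28, a rise of 1.0 ± 0.29 (adjusted p = 0.0179). The groups of Gad1 nearly touched, and the call was lost without P14 replicate 3 (0.83, adjusted p = 0.0825) or P28 replicate 3 (0.88, adjusted p = 0.0652). Gad1 stood at 11.34 and 11.47 in +/+ retina, far above either Rorb-/- age. Tac1, the substance P precursor gene, read 8.13 to 8.43 at P14 and 8.95 to 9.22 at P28, a rise of 0.91 ± 0.12 (adjusted p = 3.59e-06). Its step differed from that in +/+ (-0.16) by 1.07 ± 0.17 (adjusted p = 0.000513), and both values fell to 0.47 and 0.59 as the mean of its probe sets, still past the threshold.

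Of 8 horizontal cell genes 2 rose and 1 fell, beside the same 6.15% and 8.8%. Calb1, which encodes calbindin, read 7.65, 7.89, 7.58 and 8.08 at P14 and 8.70, 8.60, 8.71 and 8.62 at P28, a rise of 0.86 ± 0.15 (adjusted p = 0.000194). As the mean of its probe sets it was 0.44 (adjusted p = 0.00358). Lhx1, a homeobox gene of horizontal cells, read 4.49 to 5.06 at P14 and 5.38 to 6.03 at P28, a rise of 0.82 ± 0.17 (adjusted p = 0.00137). The steps of both differed from +/+, by 0.96 ± 0.21 (adjusted p = 0.0116) for Calb1 and 1.26 ± 0.25 (adjusted p = 0.00425) for Lhx1. Onecut1, a horizontal cell factor, stayed dim at 4.98 to 5.55 at P14 and 4.92 to 5.89 at P28, and Calb1 in +/+ retina was at 10.65 and 10.55.

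Of 20 bipolar cell genes 4 rose and 6 fell, beside 6.15% and 8.8% of all genes. Gng13, a G protein subunit of ON bipolar cells, read 9.28, 9.46, 9.2 and 9.34 at P14 and 10.40, 10.16, 10.48 and 10.24 at P28, a rise of 1.0 ± 0.14 (adjusted p = 9.03e-06), or 0.62 as the mean of its probe sets. Nyx, which encodes nyctalopin of the ON bipolar dendrite, rose by 0.70 ± 0.12, and Car8 by 0.70 ± 0.17 with overlapping arrays and a call that ended with only these arrays in the fit (adjusted p = 0.0539). Isl1, a homeobox factor of bipolar and other inner neurons, read 11.77 to 12.20 at P14 and 11.15 to 11.27 at P28, a fall of -0.81 ± 0.11 (adjusted p = 8.53e-06). Prkca, the rod bipolar kinase, read 10.99, 11.23, 11.01 and 11.05 at P14 and 10.44, 10.38, 10.54 and 10.37 at P28, a fall of -0.64 ± 0.11 (adjusted p = 0.000158). In +/+ retina Prkca changed by 0.07, and the steps differed by -0.71 ± 0.16 (adjusted p = 0.0106). Vsx1, a marker of cone bipolar cells, averaged 7.83 and 7.86.

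Of 18 ganglion cell genes 2 rose and 4 fell, beside 6.15% and 8.8% of all genes. Those that fell were led by Gap43, Stmn2 (-1.0 ± 0.10) and Tubb3 (-0.93 ± 0.13), genes of axon growth and microtubules that the immature neuron list also holds. Chrna6, a nicotinic receptor subunit, rose by 1.0 ± 0.19 (adjusted p = 0.000504), its P14 replicate 4 at 9.46 lying above P28 replicate 2 at 9.30. Rbpms, a marker shared by ganglion cells, averaged 6.91 and 7.11. Of 23 synapse and vesicle genes 4 rose and 3 fell, beside the same 6.15% and 8.8%, with related members moving apart. Glra1, the adult glycine receptor subunit, rose by 0.73 ± 0.10 while the fetal subunit Glra2 fell by -0.90 ± 0.13, and Vamp1 rose by 0.98 ± 0.18 while Stx1a fell by -0.78 ± 0.10. No P14 array overlapped a P28 array for these 4 genes.

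Of 20 Müller glia genes 7 rose and 5 fell, against 6.15% and 8.8% of all genes, with a median of -0.04. Aqp4, Car14, Clu and Car2 are the rises named for their size. Aqp4, the water channel, read 8.66, 9.07, 8.63 and 8.99 at P14 and 9.88, 9.98, 9.76 and 9.75 at P28, a rise of 1.0 ± 0.11 (adjusted p = 1.58e-07). Car14, a membrane carbonic anhydrase, read 7.64, 7.68, 7.71 and 8.10 at P14 and 9.27, 9.08, 9.34 and 9.42 at P28, a rise of 1.49 ± 0.26 (adjusted p = 0.000137). Clu, the secreted chaperone clusterin, rose by 0.85 ± 0.12 and Car2, the soluble carbonic anhydrase, by 0.76 ± 0.13. The ages did not overlap for any of these 4. In +/+ retina Aqp4 was already at 9.66 at P14 and at 9.71 at P28, and Car14 at 9.92 and 9.90, so the Rorb-/- values at P28 were 9.84 for Aqp4, near the wild type, and 9.28 for Car14, below it. The steps differed by 0.95 ± 0.15 for Aqp4 (adjusted p = 0.000513), 1.51 ± 0.36 for Car14 (adjusted p = 0.0198) and 0.72 ± 0.17 for Clu (adjusted p = 0.0143). The glial potassium channel gene Kcnj10 was 0.22 ± 0.18 higher (adjusted p = 0.467). The largest fall was that of Crym, a thyroid hormone-binding protein, with 9.57 to 10.74 at P14 and 8.0 to 9.06 at P28 (-1.73 ± 0.28, adjusted p = 5.71e-05), and it fell by -1.25 in +/+ retina too. The general Müller markers Rlbp1 and Glul differed by -0.17 ± 0.08 and 0.20 ± 0.10, neither past the threshold.

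**Figure D3:**
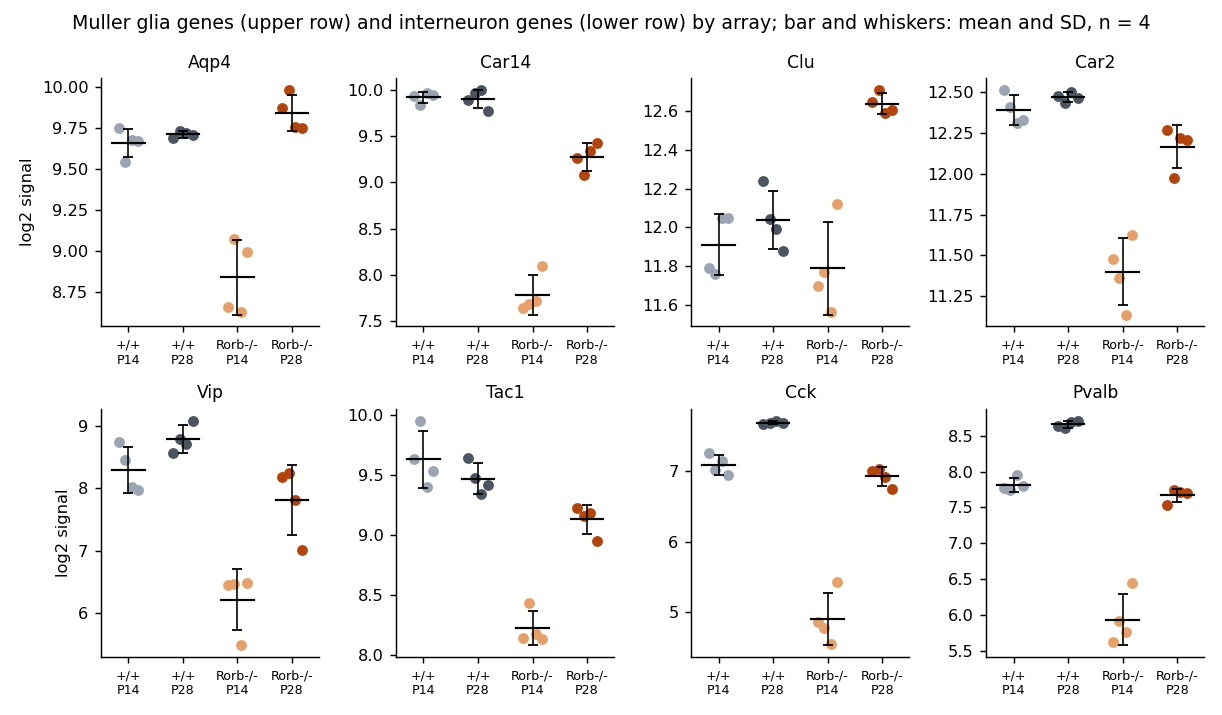
Log2 signal (vertical axis) on each array of P14 and P28 +/+ and Rorb-/- retina for 4 Müller glia genes (upper row) and 4 interneuron genes (lower row); the axis range differs between panels. Points are mice, and bar and whiskers are the mean and SD of 4. Aqp4 in Rorb-/- retina moves from a mean of 8.84 to 9.84, while the +/+ means are 9.66 and 9.71.

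Of 21 genes of gliosis and injury 6 rose and none fell, against 6.15% and 8.8% of all genes, with a median of 0.25. Osmr, the receptor subunit for oncostatin M, read 4.62, 4.54, 3.72 and 4.41 at P14 and 5.87, 5.98, 6.33 and 6.01 at P28, a rise of 1.72 ± 0.22 (adjusted p = 1.94e-06) from near the lower quartile. In +/+ retina it changed by -0.35, and the steps differed by 2.08 ± 0.30 (adjusted p = 0.000257). Averaged over its probe sets, the rise was 0.68 and the difference of steps 0.72, both past the threshold. The metallothioneins Mt2 and Mt1, which bind zinc and copper, rose by 1.29 ± 0.26 and 0.94 ± 0.19, and by 0.87 and 0.67 in +/+ retina, so their steps were not shown to differ (adjusted p = 0.677 and 0.735). Without probe sets of shared sequence Mt1 rose by 0.49. Gfap, the intermediate filament of reactive glia, read 7.01, 7.13, 6.84 and 7.03 at P14 and 7.25, 7.23, 7.49 and 7.01 at P28, a difference of 0.24 ± 0.23 (adjusted p = 0.562).

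Of 17 circadian clock genes 10 rose and 1 fell, against 6.15% and 8.8% of all genes, and the median was 0.40. Bhlhe40, a repressor of clock output, read 6.91, 7.37, 7.56 and 7.75 at P14 and 8.42, 8.56, 8.73 and 8.83 at P28, a rise of 1.24 ± 0.19 (adjusted p = 2.6e-05). Ciart, another repressor of the loop, read 5.63, 5.81, 5.67 and 5.62 at P14 and 6.49, 6.39, 7.27 and 7.51 at P28, a rise of 1.23 ± 0.21 (adjusted p = 9.77e-05). Dbp, a direct output of the clock, read 9.98, 10.27, 9.86 and 10.37 at P14 and 10.96, 11.06, 11.59 and 11.59 at P28, a rise of 1.18 ± 0.17 (adjusted p = 1.23e-05). For Ciart and Dbp the P28 replicates 3 and 4 were higher than 1 and 2, and all 4 were above P14. Nr1d1, which encodes the repressor REV-ERB alpha, rose by 1.17 ± 0.22, Per2 by 0.90 ± 0.13 and Hlf, a relative of Dbp, by 0.67 ± 0.11. Arntl, the activator of the loop, was the member that fell (-0.45 ± 0.12, adjusted p = 0.0126). It did not pass as the mean of its probe sets (-0.32, adjusted p = 0.324) or without probe sets of shared sequence (-0.18, adjusted p = 0.816). In +/+ retina 5 clock genes rose and none fell, against 5.77% and 7.94% of all genes. No clock gene had steps that passed the test of the difference, Dbp coming closest at 0.83 ± 0.24 (adjusted p = 0.0559). The mean log2 signal of the list was 7.89 to 7.99 on P14 and 8.26 to 8.63 on P28 Rorb-/- arrays, against 8.08 to 8.36 and 8.43 to 8.56 in +/+. The hour of dissection is not given in the labels, and its part in the result was not tested.

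The promoter of Ciart is shown because the clock activators bind E-boxes of the letters CACGTG, and 3 stood in its 250 bases before the transcription start. Sequence and position are RefSeq's (build GRCm38.p6), 5′ to 3′ on the gene's strand, with matches in capitals. The stretch is chr3:95882229-95882478, minus strand, and the matches begin 116, 58 and 44 bases before the start.
Ciart: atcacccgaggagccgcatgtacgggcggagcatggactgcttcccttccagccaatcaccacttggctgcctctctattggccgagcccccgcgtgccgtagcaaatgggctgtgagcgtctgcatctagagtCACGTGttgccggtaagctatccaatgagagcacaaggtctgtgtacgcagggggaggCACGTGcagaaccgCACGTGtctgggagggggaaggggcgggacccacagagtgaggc
The motif reads the same on both strands. It stood in 6.02% of 32851 promoters of this length and in 6 of the 20 promoters of clock list genes. Counted by gene, it stood in 1854 of 27025 genes. Of the clock list genes found among these promoters it stood in 5 of 15 and in 2 of the 9 called ones, while the promoter of Dbp held none. Such a match describes the letters only.

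Interferon-stimulated genes differed widely among the P14 mice and were high in all 4 P28 mice. Ifi27, a small mitochondrial protein gene induced by interferon, read 6.93, 7.37, 6.70 and 8.18 at P14 and 9.87, 9.76, 8.88 and 8.96 at P28. It rose by 2.07 ± 0.24 (adjusted p = 4.83e-07) without overlap, and its step differed from that in +/+ (0.30) by 1.77 ± 0.33 (adjusted p = 0.00319). Ifit1, which binds foreign RNA caps, read 5.89, 8.57, 4.14 and 7.71 at P14 and 8.62, 8.77, 8.21 and 8.01 at P28. P14 replicate 3 was at the level of the +/+ arrays (means 4.05 and 4.39), while P14 replicate 2 already lay within the P28 range. The rise of Ifit1 was 1.82 ± 0.53 (adjusted p = 0.0183), and its call was lost without P14 replicate 1 (1.6, adjusted p = 0.07), P14 replicate 3 (1.01, adjusted p = 0.115) or P28 replicate 2 (1.70, adjusted p = 0.051).

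Ifit3 read 7.45, 9.52, 6.34 and 8.82 at P14 and 9.45 to 9.70 at P28 (1.53 ± 0.36, adjusted p = 0.00355), and Ifit3 has a near-identical copy, so its probe set may read both. Without P14 replicate 3 its difference was 0.97 (adjusted p = 0.018). Gbp2, an interferon-induced GTPase, read 4.82, 6.92, 4.61 and 6.63 at P14 and 6.80, 7.38, 7.37 and 7.43 at P28 (1.5 ± 0.34, adjusted p = 0.00233). Lgals3bp rose by 1.26 ± 0.37 (adjusted p = 0.0188), not without P14 replicate 3 (0.66, adjusted p = 0.11) or P28 replicate 1 (1.19, adjusted p = 0.0555). Irf7, the factor that amplifies the response, rose by 0.91 ± 0.26 (adjusted p = 0.016), not without P14 replicate 1 (0.81, adjusted p = 0.0583) or P14 replicate 3 (0.56, adjusted p = 0.107).

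Of the 35 members 8 rose and none fell, against 6.15% and 8.8% of all genes, with a median of 0.52. That count was 4 without P14 replicate 1, 19 without P14 replicate 2, 3 without P14 replicate 3, 13 without P14 replicate 4, and 5 without P28 replicate 1 or P28 replicate 2. With only the 8 arrays in the fit 1 member passed. The mean log2 signal of the list was 6.24, 7.36, 5.57 and 7.02 on the P14 arrays, 7.22, 7.29, 7.06 and 7.08 on the P28 arrays and 5.33 to 5.62 on all +/+ arrays. In +/+ retina none of the 35 passed in either direction, and Ifi27 was the member whose steps passed the test of the difference. In Rorb-/-;CrxpNrl retina 30 of the 35 rose and none fell, against 13.6% and 15.3% of all genes, with a median of 1.23. There the list mean was 5.635 to 6.284 at P14 and 7.011 to 7.628 at P28. No member's step was shown to differ between Rorb-/- and Rorb-/-;CrxpNrl. The order of the P14 Rorb-/- mice in these genes was not that in rod genes, where replicates 1 and 2 were low.

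Stretches of 250 bases before the start of 3 called interferon genes and of B2m are shown because they hold the interferon response element, searched as GAAA, any 2 bases and GAAA on both strands. They are RefSeq's (GRCm38.p6), 5′ to 3′ on the plus strand, on which all 4 genes lie, with matches in capitals. The positions are chr19:34640639-34640888 for Ifit1, chr19:34583279-34583528 for Ifit3, chr3:142620413-142620662 for Gbp2 and chr2:122147437-122147686 for B2m. Matches begin 104 and 85 bases before the start of Ifit1, 156 and 122 before that of Ifit3, 59 before that of Gbp2 and 139 before that of B2m.
Ifit1: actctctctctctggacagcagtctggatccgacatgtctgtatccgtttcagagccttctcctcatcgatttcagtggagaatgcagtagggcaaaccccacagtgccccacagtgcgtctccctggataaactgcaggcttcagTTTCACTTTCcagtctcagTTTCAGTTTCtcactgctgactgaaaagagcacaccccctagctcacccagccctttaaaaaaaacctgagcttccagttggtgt
Ifit3: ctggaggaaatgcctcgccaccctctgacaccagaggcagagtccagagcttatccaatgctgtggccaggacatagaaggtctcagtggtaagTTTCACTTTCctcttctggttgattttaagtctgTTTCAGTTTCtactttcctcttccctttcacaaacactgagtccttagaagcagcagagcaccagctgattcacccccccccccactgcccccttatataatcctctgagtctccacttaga
Gbp2: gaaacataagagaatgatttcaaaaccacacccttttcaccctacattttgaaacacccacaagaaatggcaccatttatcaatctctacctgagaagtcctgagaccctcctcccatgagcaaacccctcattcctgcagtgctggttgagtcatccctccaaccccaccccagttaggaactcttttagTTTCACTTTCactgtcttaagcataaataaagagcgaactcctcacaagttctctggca
B2m: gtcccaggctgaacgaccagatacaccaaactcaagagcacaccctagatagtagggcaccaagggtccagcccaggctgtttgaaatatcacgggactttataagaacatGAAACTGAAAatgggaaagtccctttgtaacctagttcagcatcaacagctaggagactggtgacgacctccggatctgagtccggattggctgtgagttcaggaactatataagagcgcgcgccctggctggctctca
The element stood in 2.98% of 32851 promoters of this length and in 9 of the 30 promoters of interferon list genes. Counted by gene, it stood in 936 of 27025 genes. Of the interferon list genes found among these promoters it stood in 9 of 25 and in 4 of the 7 called ones. Of the antigen presentation genes found there, described next, it stood in 1 of 12 and in 1 of the 3 called ones. A match is a description of the letters, not a site.

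Of 17 genes of antigen presentation 6 rose and none fell, against 6.15% and 8.8% of all genes, with a median of 0.17, and 3 rose without probe sets of shared sequence. B2m, the light chain of class I molecules, read 10.17, 9.96, 8.66 and 10.19 at P14 and 11.36, 11.02, 10.97 and 11.36 at P28, a rise of 1.43 ± 0.27 (adjusted p = 0.000404), against 0.10 in +/+. The test of the difference of steps gave 1.32 ± 0.38 (adjusted p = 0.0559). Cd74, the class II invariant chain, read 5.10 to 5.39 at P14 and 5.92 to 6.38 at P28, a rise of 0.88 ± 0.14 (adjusted p = 8.44e-05), and its step differed from +/+ by 1.0 ± 0.20 (adjusted p = 0.006). Nlrc5, the activator of class I genes, rose by 0.88 ± 0.20 (adjusted p = 0.00271). H2-K1, a class I heavy chain, read 6.83, 8.53, 7.46 and 8.62 at P14 and 9.51, 10.24, 9.49 and 9.53 at P28, a rise of 1.83 ± 0.47 (adjusted p = 0.0079). H2-D1 read 6.22, 8.84, 8.01 and 9.21 at P14 and 9.94, 10.52, 9.87 and 10.003 at P28, a difference of 2.01 ± 0.83 (adjusted p = 0.109). As the mean of its probe sets H2-D1 passed at 0.82 (adjusted p = 0.00361), and without those of shared sequence at 1.01 (adjusted p = 0.0126). With only the Rorb-/- arrays in the fit it passed as well (adjusted p = 0.0324). H2 genes are near-identical and polymorphic, so their probe sets are uncertain, and H2-D1 also ran from 5.60 to 8.97 among the P14 +/+ arrays.

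Pigment epithelium and lens signals were uneven among the P28 mice. The mean log2 signal of 19 pigment epithelium and melanocyte genes was 6.23, 6.21, 6.26 and 5.98 at P14 and 7.09, 7.38, 6.55 and 6.13 at P28, highest in P28 replicates 1 and 2. That of 15 lens genes was 6.80, 7.68, 5.66 and 5.67 at P14 and 10.76, 10.62, 7.37 and 4.80 at P28, again highest in P28 replicates 1 and 2. Rgr, an opsin of the pigment epithelium, read 5.29, 5.36, 5.52 and 5.01 at P14 and 7.39, 8.33, 7.20 and 5.69 at P28, a rise of 1.86 ± 0.52 (adjusted p = 0.0138) that was 1.47 without P28 replicate 2 (adjusted p = 0.0704). Ttr, the thyroxine and retinol carrier, read 9.18, 9.46, 10.45 and 8.81 at P14 and 11.74, 12.10, 11.02 and 9.51 at P28, a rise of 1.62 ± 0.51 (adjusted p = 0.0308). Its call was lost without P14 replicate 1, 2 or 4 or without P28 replicate 1, 2 or 3. The difference was then 1.28 (P28 replicate 2) to 1.64 (P28 replicate 3), with adjusted p of 0.0551 (P28 replicate 3) to 0.123 (P28 replicate 2).

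Rpe65, the retinoid isomerase, read 5.01, 4.99, 4.99 and 4.39 at P14 and 6.62, 6.56, 5.86 and 5.28 at P28, a difference of 1.23 ± 0.44 (adjusted p = 0.0592), which passed without P28 replicate 4 (1.5, adjusted p = 0.0311). Rdh5, a retinol dehydrogenase, rose by 1.11 ± 0.33 (adjusted p = 0.0205), not without P14 replicate 1 (1.0, adjusted p = 0.0686), P28 replicate 1 (1.04, adjusted p = 0.0586) or P28 replicate 2 (0.85, adjusted p = 0.0972). Dct of melanin synthesis was 0.99 ± 0.36 higher (adjusted p = 0.0611) and passed without P28 replicate 3 (1.21, adjusted p = 0.0333) or P28 replicate 4 (1.31, adjusted p = 0.0143). Of the 19 genes 4 rose and none fell, against 6.15% and 8.8% of all genes, with a median of 0.46. The count was 2 without P14 replicate 1 or P28 replicate 1, 1 without P28 replicate 2 and 9 without P28 replicate 4. In +/+ retina 1 rose and 11 fell, against 5.77% and 7.94% of all genes, with a median of -0.96. For 10 of the 19 the steps passed the test of the difference, all more positive in Rorb-/-, against 1.41% of all genes. Of 14 retinoid cycle genes 4 rose (Rgr, Ttr, Rdh5 and, at 0.31, Rdh11) and none fell, but 5 of the 14 (Rpe65, Lrat, Rgr, Rdh5 and Ttr) are on the pigment list too. That count was 1 without P14 replicate 1, P28 replicate 1 or P28 replicate 2.

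The +/+ mice were uneven as well. Rgr read 8.65, 9.35, 9.15 and 9.32 at P14 and 6.97, 6.30, 9.41 and 7.02 at P28 in +/+ retina, and P28 +/+ replicate 3 was as high as the P14 mice. That mouse was also the highest of the P28 +/+ mice for Ttr (12.001), Rpe65 (8.11), the pigment list mean (6.93, against 6.04 to 6.35) and the lens list mean (10.56, against 6.13 to 7.75). Without it the differences of steps were 4.22 for Rgr, 4.40 for Ttr, 3.599 for Rpe65 and 3.73 for Dct (adjusted p = 0.000311, 0.000236, 0.000299 and 0.000178). Leaving out single mice was chosen after seeing the data for the +/+ and difference counts of this list and the vessel list, and for Marcksl1, Ly86 and Vwf. Without that mouse 11 pigment genes fell and none rose in +/+, and 12 had steps that differed. Over all 16 mice left out in turn, 8 to 12 members had steps that differed.

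With P28 replicates 1 and 2 both left out, an alternative chosen after seeing the data, Rgr was at 1.15 (adjusted p = 0.267), Ttr at 0.79 (adjusted p = 0.479), Rdh5 at 0.63 (adjusted p = 0.346) and Gnat1 at 1.56 (adjusted p = 0.137). H2-K1 was then at 1.65 (adjusted p = 0.0804), the interferon list had 4 and the pigment list 1 called member, and 252 genes changed at least 2-fold, 154 higher and 98 lower. Best1, another pigment epithelium marker, averaged 6.0 at P14 and 6.06 at P28. The lens markers Cryaa and Crygd, crystallin genes of the lens, read 13.46 and 12.64 in P28 replicate 1 and 4.80 and 4.35 in P28 replicate 4. Of the 15 lens genes 1 rose, the count was 9 without P28 replicate 4, and the part of lens and pigment epithelium RNA in other results was not tested beyond leaving those 2 mice out.

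**Figure D4:**
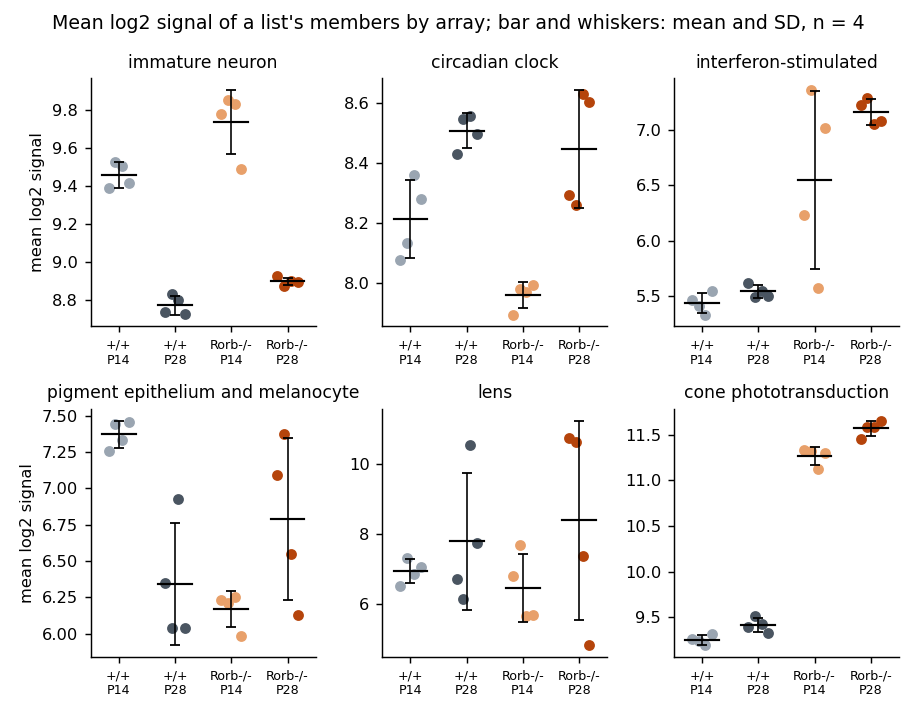
Mean log2 signal of the measured members of 6 gene lists (vertical axis) on each array of P14 and P28 +/+ and Rorb-/- retina; the axis range differs between panels. Points are mice, and bar and whiskers are the mean and SD of 4. The immature neuron list is at 8.88 to 8.93 on all P28 Rorb-/- arrays, the interferon list is spread from 5.57 to 7.36 at P14 against 7.06 to 7.29 at P28, and the lens list is spread from 4.80 to 10.76 at P28.

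Of 21 microglia and macrophage genes 2 rose and 7 fell in Rorb-/-, against 6.15% and 8.8% of all genes, with a median of -0.25. In +/+ retina 1 rose and 7 fell, against 5.77% and 7.94%, and 4 genes fell in both genotypes (Cx3cr1, Csf1r, Tyrobp and Fcgr3). The steps passed the test of the difference for Lyz2 and Ly86. Ly86, a partner of the receptor RP105, was 0.11 higher in Rorb-/- (adjusted p = 0.677) and fell by -0.74 in +/+, a difference of 0.85 (adjusted p = 0.0142). The Rorb-/- count was 5, with 1 higher, without P14 replicate 1. Lyz2, a macrophage lysozyme, read 7.54, 7.07, 7.0 and 6.2 at P14 and 5.59, 5.92, 5.17 and 5.39 at P28, a fall of -1.43 ± 0.22 (adjusted p = 2.96e-05). In +/+ retina it was dim at both ages (5.40 and 5.25), and the steps differed by -1.28 ± 0.31 (adjusted p = 0.0203), which was -1.08 without P14 replicate 1 (adjusted p = 0.0594). Its neighbour Lyz1 fell by -1.87 ± 0.25, but the probe set of Lyz1 shares sequence with others and the remaining one gave 0.01 (adjusted p = 0.985), so the fall cannot be assigned to Lyz1. Fcgr3, an Fc receptor, fell by -0.88 ± 0.16, and Cd68, a lysosomal marker, by -0.73 ± 0.19 (adjusted p = 0.00828), not without P14 replicate 1 (-0.57, adjusted p = 0.0514). Cx3cr1, the fractalkine receptor, fell by -0.54 ± 0.16 (adjusted p = 0.0185). The call was lost without P14 replicate 1 (-0.42, adjusted p = 0.0945), P14 replicate 3 (-0.50, adjusted p = 0.0611) or P28 replicate 3 (-0.50, adjusted p = 0.0583). The microglial marker Aif1 averaged 5.21 at P14 and 4.86 at P28. Of 10 complement genes 2 rose and 1 fell, beside 6.15% and 8.8% of all genes, led by Serping1, the C1 inhibitor, which rose by 0.87 ± 0.18 (adjusted p = 0.00109).

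Of 20 vessel and pericyte genes 2 rose and 1 fell in Rorb-/-, a share near the 6.15% and 8.8% of all genes, with a median of -0.03. In +/+ retina 1 rose and 11 fell, against 5.77% and 7.94%, with a median of -0.48. The steps passed the test of the difference for 4 of the 20 (Cldn5, Esam, Vwf and Slco1c1), each more positive in Rorb-/-, against 1.41% of all genes. With single mice left out 3 to 6 members passed. Aplnr, the apelin receptor of sprouting endothelium, is not on this list and was named for the size of its fall. It read 5.87, 6.2, 6.34 and 6.64 at P14 and 3.61, 4.06, 3.42 and 3.44 at P28, near or below the lower quartile, a fall of -2.63 ± 0.25 (adjusted p = 2.97e-08). In +/+ retina it went from 8.22 to 3.51, below the lower quartile, so the sizes of both falls are limited there. The difference of steps of 2.07 (adjusted p = 0.00112) is subject to that limit. Without probe sets of shared sequence the difference was 0.09 (adjusted p = 0.878). Over all probe sets of Aplnr the mean fall in Rorb-/- was -1.67, and without probe sets of shared sequence it was -0.70. Cldn5, a tight junction gene, fell by -0.64 ± 0.17 (adjusted p = 0.0114), not without P14 replicate 4 (-0.52, adjusted p = 0.0532) or P28 replicate 4 (-0.47, adjusted p = 0.068). In +/+ retina Cldn5 changed by -1.76, and the steps differed by 1.12 ± 0.25 (adjusted p = 0.00976). Slco1c1, a thyroxine transporter of the blood-retina barrier, rose by 0.94 ± 0.22 with overlapping arrays, and Esam, an endothelial adhesion molecule, rose by 0.61 ± 0.12 (adjusted p = 0.000499). Vwf, the von Willebrand factor gene, was 0.31 higher in Rorb-/- (adjusted p = 0.402) and fell by -1.29 in +/+, a difference of 1.59 (adjusted p = 0.00365) that was 1.39 or more without any 1 mouse. The endothelial marker Pecam1 averaged 4.37 and 4.26.

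Of 19 collagen and matrix genes 1 rose and 5 fell, beside 6.15% and 8.8% of all genes, with a median of -0.32. Col2a1 and Col9a1, cartilage-type collagens of the vitreous, fell by -1.02 ± 0.16 and -1.0 ± 0.10, and Col9a1 by -1.14 in +/+. Dcn, the small proteoglycan decorin, rose by 1.41 ± 0.30 (adjusted p = 0.00158), or by 0.74 as the mean of its probe sets. Without P28 replicate 2 the matrix count was 11, with 9 lower. Of 27 cell cycle genes 1 rose and 4 fell, a share near the background, and the count was 3, all lower, without P14 replicate 2 and 10, with 9 lower, without P28 replicate 2. Hmgb2, a chromatin protein, fell by -1.05 ± 0.18 while rising by 0.87 in +/+. The difference of -1.92 ± 0.26 (adjusted p = 0.000139) rested on probe sets of shared sequence, without which the fall was -0.02 (adjusted p = 0.956) and the difference -0.01 (adjusted p = 0.995), and without P28 replicates 1 and 2 the fall was -0.56. Bub1b, a spindle checkpoint kinase, rose by 0.95 ± 0.28 (adjusted p = 0.0186), not without P14 replicate 2 (0.88, adjusted p = 0.0584) or P28 replicate 3 (0.81, adjusted p = 0.0729), and Mcm6, a replication helicase subunit, fell by -0.70 ± 0.10. Of 19 immediate early genes 2 rose and 1 fell, and 4 rose without P28 replicate 1. Egr2 fell by -1.39 ± 0.20 (adjusted p = 1.29e-05), with 4.66 to 6.03 at P14 and 3.52 to 3.80 at P28, and Dusp1 rose by 0.93 ± 0.15. Beside 6.15% higher and 8.8% lower among all genes, of 18 ribbon synapse genes 1 rose, of 16 apoptosis genes 4 fell, of 17 cholesterol synthesis genes 4 rose and 4 fell, and of 19 glycolysis genes 5 rose. Single mice moved these counts, the 5 glycolysis genes becoming 1 without P14 replicate 1 or P28 replicate 4 and 0 without probe sets of shared sequence. Of 14 astrocyte and oligodendrocyte genes 1 rose and 2 fell, Mbp averaging 8.21 and 8.0, and of 5 red blood cell genes 0 passed (1 did, lower, without P28 replicate 4).

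Outside the lists, the gene with the largest rise was Etnppl, a phosphoethanolamine-degrading enzyme of astroglia, which read 4.56, 5.22, 4.25 and 5.83 at P14 and 7.12, 7.14, 8.66 and 8.60 at P28 (2.91 ± 0.37, adjusted p = 2.41e-06). Its step was 2.95 in +/+ retina. Sgk1, a glucocorticoid-induced kinase, read 7.74, 8.17, 6.61 and 7.45 at P14 and 10.11, 10.05, 10.36 and 10.17 at P28 (2.68 ± 0.31, adjusted p = 7.48e-07), and its step was 2.41 in +/+. In both genes each P28 mouse exceeded each P14 mouse, which was a condition for naming genes by the size of their rise. The genotypes' steps of Etnppl and Sgk1 were not shown to differ (adjusted p = 0.988 and 0.856).

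Cck, Pvalb and Kcnj9 were named for the size of their rise. Cck, the cholecystokinin gene, read 4.86, 4.78, 4.54 and 5.42 at P14 and 7.01, 7.04, 6.92 and 6.75 at P28, a rise of 2.03 ± 0.21 (adjusted p = 1.47e-07). In +/+ retina it went from 7.10 to 7.70, and the steps differed by 1.43 ± 0.30 (adjusted p = 0.00719). Pvalb, which encodes parvalbumin, read 5.62, 5.92, 5.75 and 6.44 at P14 and 7.54, 7.74, 7.71 and 7.70 at P28 (1.74 ± 0.21, adjusted p = 1.18e-06), against 0.85 in +/+. The steps of Pvalb were not shown to differ between these genotypes. Kcnj9, a G protein-gated potassium channel, rose by 2.09 ± 0.52 (adjusted p = 0.00565), or by 1.02 as the mean of its probe sets. Both Cck and Pvalb ended below their P28 +/+ means of 7.70 and 8.66.

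Several other genes rose from below or close to the array median at P14, and Plscr2, Tc2n and Map3k8 from near the lower quartile in some or all mice. Tc2n, a C2-domain protein gene, read 5.78, 5.31, 3.85 and 3.81 at P14 and 8.46, 7.58, 7.09 and 6.66 at P28 (2.76 ± 0.39, adjusted p = 1e-05), Plscr2 rose by 2.07 ± 0.21 from 2.83, and Map3k8, a kinase of inflammatory signalling, by 1.82 ± 0.25 from 4.74. Spag5, a spindle protein gene, rose by 2.12 ± 0.24, Dnaic1, a ciliary dynein chain gene, by 1.96 ± 0.22, and Gna14, a G protein alpha subunit gene, by 1.81 ± 0.22. The ages did not overlap for these 6 genes, which was a condition for naming genes by the size of their rise.

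Further genes with large falls included Chrnb4, a nicotinic receptor subunit, which read 9.16, 8.97, 9.08 and 9.09 at P14 and 7.13, 7.83, 7.23 and 7.22 at P28 (-1.72 ± 0.19, adjusted p = 3.31e-07). In +/+ retina it was dim throughout (5.42 and 5.06), and the steps differed by -1.36 ± 0.27 (adjusted p = 0.00466). Ppic, a cyclophilin, fell by -1.75 ± 0.14 and by -2.29 in +/+. Ctxn1, a neuronal membrane protein, fell by -1.51 ± 0.19, Ppp1r14a, a phosphatase inhibitor, by -1.48 ± 0.21, the chromatin gene Asxl3 by -1.45 ± 0.14 and the RNA-binding protein gene Mex3b by -1.45 ± 0.21. For Mex3b the +/+ step was -0.17, and the steps differed by -1.27 ± 0.29 (adjusted p = 0.0144).

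The age step of the Rorb-/- retina and that of the +/+ retina share no mice. In +/+ retina 2495 genes passed adjusted p 0.05 (13.7%) and 154 changed at least 2-fold (0.846%), 51 higher (0.28%) and 103 lower (0.566%). The lists of genes changed at least 2-fold shared 29 genes, 25 of them in the same direction, 4 higher and 21 lower, which is 12.8% of the 195 and 16.2% of the 154. In opposite directions went Cox8b, Rdh5, Rgr and Ttr, higher in Rorb-/- and lower in +/+. Across 18193 genes the steps correlated at r = 0.466, genes not being independent replicates. The test of the difference itself passed for 495 genes (2.72%) and with at least a 2-fold difference for 126 (0.693%), of which 97 had the more positive step in Rorb-/- (0.533%) and 29 the more negative one (0.159%). Of the 195 genes of the Rorb-/- step, 70 had steps that passed this test. Without any 1 mouse the count ran from 102, without P14 Rorb-/- replicate 1, to 160, without P14 Rorb-/- replicate 4.

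**Figure D5:**
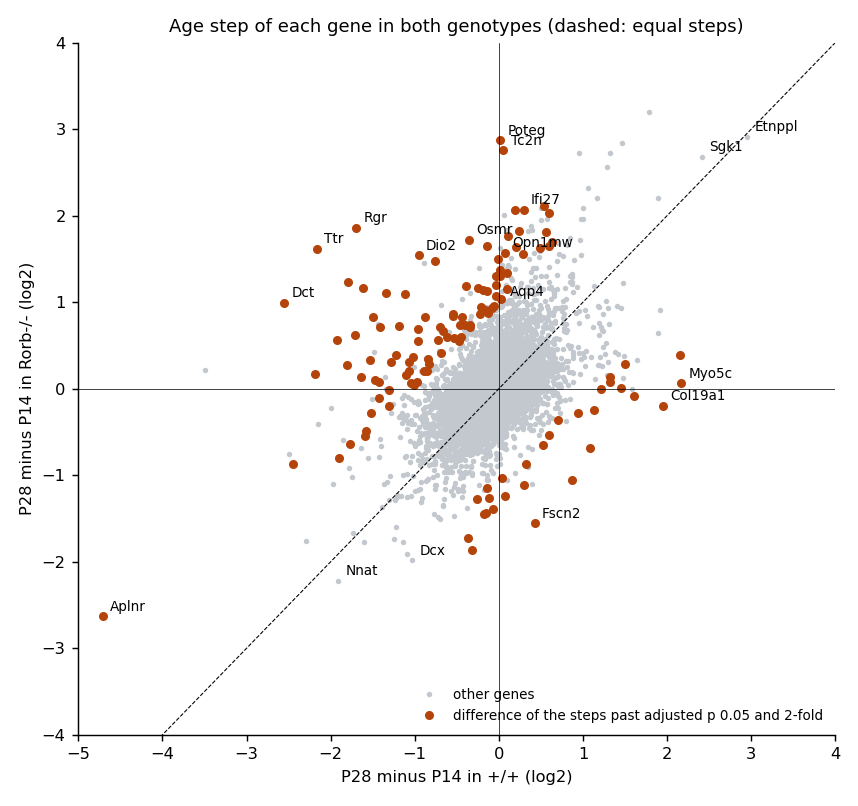
Age step (P28 minus P14, log2) of 18193 genes in +/+ retina (horizontal axis) and Rorb-/- retina (vertical axis), with equal steps on the dashed line. Orange points are the 126 genes whose steps differed at adjusted p under 0.05 and at least 2-fold. Nnat, Etnppl and Sgk1 lie close to the dashed line, Ttr, Rgr and Dct rise or stay in Rorb-/- while falling in +/+, and Myo5c and Col19a1 rise in +/+ and stay in Rorb-/-.

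Among the more positive steps in Rorb-/- were the pigment epithelium genes given above, with differences of 3.78 ± 0.72 for Ttr, 3.55 ± 0.73 for Rgr, 3.54 ± 0.51 for Dct and 3.03 ± 0.62 for Rpe65. Poteg, an ankyrin repeat gene of a family of near-identical copies, read 3.51, 3.51, 4.00 and 6.83 at P14 and 7.49, 5.69, 8.22 and 7.96 at P28, against means of 3.17 and 3.19 in +/+. Its P14 replicate 4 was inside the P28 range, and the difference of steps of 2.86 ± 0.66 (adjusted p = 0.015) did not pass in a fit of the 16 compared arrays alone (adjusted p = 0.0819). Pon1, a lactonase, had a difference of 2.77 ± 0.58 (adjusted p = 0.00759) and Tc2n one of 2.70 ± 0.55 (adjusted p = 0.0057). Dio2, the deiodinase that activates thyroid hormone, read 8.0, 8.73, 7.59 and 8.41 at P14 and 9.85, 9.30, 9.91 and 9.84 at P28. It rose by 1.54 ± 0.29 (adjusted p = 0.000404) while falling by -0.96 in +/+, a difference of 2.5 ± 0.41 (adjusted p = 0.000912).

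Among the more negative steps were genes that rose in +/+ retina and stayed low in Rorb-/-. Myo5c, an unconventional myosin, read 3.43 to 3.84 at P14 and 3.5 to 3.81 at P28, and rose from 4.22 to 6.39 in +/+. The difference of steps was -2.10 ± 0.23 (adjusted p = 7.57e-06), or -0.89 as the mean of its probe sets. Col19a1, a fibril-associated collagen, read 4.60 to 5.39 at P14 and 4.46 to 5.29 at P28 and rose from 5.49 to 7.44 in +/+, a difference of -2.15 ± 0.32 (adjusted p = 0.000257). As the mean of its probe sets this was -1.39, and without those of shared sequence -1.06. Dleu7 read 5.70, 6.01, 5.68 and 5.94 at P14 and 5.13, 5.14, 5.20 and 5.12 at P28, a fall of -0.68 ± 0.14 (adjusted p = 0.00121) while it rose by 1.09 in +/+, a difference of -1.77 ± 0.20 (adjusted p = 1.14e-05).

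With the Nrl transgene, the Rorb-/-;CrxpNrl retina changed at more genes over the same interval. There 5257 genes passed adjusted p 0.05 (28.9%) and 540 changed at least 2-fold (2.97%), 357 higher (1.96%) and 183 lower (1.01%). Of the 195 genes of the Rorb-/- step 133 were among these 540, 132 in the same direction, 82 higher and 50 lower, which is 67.7% of the 195 and 24.4% of the 540. The exception was Tph1, which encodes the serotonin-synthesizing enzyme of the pineal gland and photoreceptors. It read 6.85, 7.07, 6.25 and 6.44 at P14 and 7.14, 8.14, 7.47 and 8.51 at P28 in Rorb-/-, a rise of 1.16 ± 0.23 (adjusted p = 0.000572), and 6.03 to 6.11 and 4.06 to 4.65 in Rorb-/-;CrxpNrl. The steps differed by 3.0 ± 0.32 (adjusted p = 7.89e-06).

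In all, the steps with and without the transgene differed at adjusted p under 0.05 for 270 genes (1.48%) and by at least 2-fold for 65 (0.357%), 41 with the more positive step in Rorb-/- (0.225%) and 24 with the more negative (0.132%). That count ran from 28, without P28 Rorb-/-;CrxpNrl replicate 4, to 209, without P28 Rorb-/-;CrxpNrl replicate 1, so its size rests on single mice. Otop3, a proton channel gene on the cone list, stayed at 10.29 to 10.69 at P14 and 10.12 to 10.58 at P28 in Rorb-/- and went from 9.57 to 9.99 down to 5.92 to 8.53 with the transgene, a difference of 2.52 ± 0.44 (adjusted p = 0.00345). Crxos, a transcript opposite the Crx gene, stayed at 9.58 and 9.54 in Rorb-/- and differed by 2.36 ± 0.37 (adjusted p = 0.00111). Inhbb, the activin beta B subunit, fell by -1.18 ± 0.20 in Rorb-/- (adjusted p = 0.00014) and rose with the transgene, a difference of -2.01 ± 0.29 (adjusted p = 0.000536). As the mean of its probe sets the fall of Inhbb was -0.62 and the difference -1.01, both past the threshold. The P28 Rorb-/-;CrxpNrl replicates 3 and 4 stood apart from 1 and 2. The mean log2 signal of the outer segment list was 10.39, 10.09, 8.35 and 8.85 on these 4 arrays, and Crx read 11.52, 11.58, 10.28 and 10.54. Otop3 read 8.53, 7.32, 5.92 and 6.51 and Crxos 7.13, 6.9, 5.29 and 5.33 there, both lowest in replicates 3 and 4. Without replicate 3 the difference was 2.14 for Otop3 (adjusted p = 0.00692) and 2.07 for Crxos (adjusted p = 0.00323), and without replicate 4 it was 2.33 (adjusted p = 0.0128) and 2.08 (adjusted p = 0.00385). In a fit of the compared arrays alone the differences of Otop3 (adjusted p = 0.0718) and Crxos (adjusted p = 0.0544) did not pass.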

How the data were processed

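Total RNA of 31 mice (5 ug per array) was labelled and hybridised to Affymetrix mouse arrays, per the labels' protocols. The deposited values are log2 signals, which the authors made with RMA per the submitters' processing notes, with no version given in the sources used here, and they were used as deposited. Of 45101 probe sets 34958 carried 1 symbol, 932 several and 9211 none, and 34754 matched a RefSeq gene. Each gene was read by its brightest probe set (mean of all arrays), which gave 18193 genes, 9010 of them with more than 1 probe set. Genes with no probe set of their own were not analysed here.

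All 31 arrays in 8 groups entered 1 limma fit (limma 3.58.1, R 4.3.3) with group means and a prior variance that follows the signal. Genes were counted as changed at adjusted p under 0.05 and at least 2-fold, and list members at adjusted p under 0.05. The number of arrays limits the precision. The fit was checked on simulated data: of 100 genes changed by 1.5 (log2) among 18193, 98% were recovered for the Rorb-/- step and 96% for its difference from +/+. Replicate numbers name different mice and were not taken to pair them.

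The members and the 30 lists were chosen with earlier results of these data known. Named were Rorb, Nrl, and for the Rorb-/- step the 15 genes that rose most and the 15 that fell most among called genes whose ages did not overlap, the 8 largest each way of the difference from +/+ and 5 each way from Rorb-/-;CrxpNrl, up to 6 members of each list by size, all members of the rod, cone, transcription factor and interferon lists, and defining markers. Sex-linked genes and unnamed transcripts were not named, and fewer genes than the rule allows are given. Arntl, Cox8b, Marcksl1, Kcnj10, Ly86, Csf1r, Tyrobp, Vwf, Rdh11, Lrat and Mef2c were named after their values were seen.

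Alternatives were quantile normalization, a shift to equal medians, averaged probe sets of a gene, no probe sets of shared sequence, no dim genes (lowest 40%), no fold requirement, no variance trend, array weights, Xist level as a covariate, the replicate block, fits of the compared arrays alone, and fits without 1 mouse. Promoters are RefSeq's. Motif searches and figures used Python 3.11.15 with pandas 2.3.3 and matplotlib 3.10.9.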

Additional observations from a re-analysis of the deposited data

Results flagged for a closer look

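In groups of 4 mice, 1 mouse stood far from the other 3 for 11 of 138 named genes at P14 and for 8 of 138 at P28, where chance gives about 1 in 20 groups. At P14 these log2 signals were Prph2 at 11.04 (replicate 3), Sox4 at 11.07 (replicate 4), B2m at 8.66 (replicate 3), Vip at 5.48 (replicate 3), Tac1 at 8.43 (replicate 2), Vamp1 at 8.26 (replicate 4), Car14 at 8.10 (replicate 4), Rpe65 at 4.39 (replicate 4), Best1 at 6.18 (replicate 3), Egr2 at 6.03 (replicate 1), Poteg at 6.83 (replicate 4). At P28 they were Prph2 at 11.25 (replicate 3), Gbp2 at 6.80 (replicate 1), H2-K1 at 10.24 (replicate 2), Vamp1 at 8.78 (replicate 2), Gna14 at 6.68 (replicate 1), Chrnb4 at 7.83 (replicate 2), Dio2 at 9.30 (replicate 2), Onecut1 at 5.89 (replicate 3). P14 replicates 3 and 4 and P28 replicate 2 recurred among them. For Prph2 the mouse numbered 3 stood apart at both ages.

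The age step differed between Rorb-/- and +/+ retina, by the test of the difference, for 43 of the genes named by rule, and for Marcksl1 (0.73), Ly86 (0.85) and Vwf (1.59), all more positive in Rorb-/- retina. For Mef2c (-1.77) it was more negative. Among the 43 it was more positive in Rorb-/- retina (log2) by 1.5 for Opn1mw, 1.77 for Ifi27, 1.0 for Cd74, 1.07 for Tac1, 0.96 for Calb1, 1.26 for Lhx1, 1.51 for Car14, 0.95 for Aqp4, 0.72 for Clu, 0.69 for Car2, 2.08 for Osmr, 3.56 for Rgr, 3.78 for Ttr, 3.03 for Rpe65, 2.45 for Rdh5, 3.54 for Dct, 2.33 for Tyrp1, 1.15 for Slco1c1, 1.12 for Cldn5, 0.83 for Esam, 2.07 for Aplnr, 2.70 for Tc2n, 1.58 for Spag5, 1.88 for Plscr2, 1.43 for Cck, 1.58 for Map3k8, 1.25 for Gna14, 2.86 for Poteg, 2.77 for Pon1, 2.5 for Dio2 and 1.41 for Tph1. It was more negative by -1.98 for Fscn2, -0.95 for Dcx, -0.71 for Prkca, -1.28 for Lyz2, -1.54 for Lyz1, -1.92 for Hmgb2, -1.32 for Egr2, -1.36 for Chrnb4, -1.27 for Mex3b, -2.15 for Col19a1, -2.10 for Myo5c and -1.77 for Dleu7. Over all 18193 genes 2.72% passed this test. Some of the 43 were named by the size of this same difference, so their count was partly set by the naming. The differences of Car2, Dcx, Slco1c1, Map3k8, Gna14, Poteg and Lyz2 each lost the call under some alternative, and those of Aplnr, Hmgb2 and Lyz1 did not pass without probe sets of shared sequence. Aplnr was near or below the lower quartile at P28 in both genotypes, which limits both falls, and its P14 levels were 6.26 in Rorb-/- and 8.22 in +/+.

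The age step differed between Rorb-/- and Rorb-/-;CrxpNrl retina for 15 of the named genes. It was more positive in Rorb-/- retina by 2.52 for Otop3, 2.23 for Esrrb, 1.01 for Crx, 0.92 for Cd74, 0.96 for Car8, 1.24 for Dnaic1, 3.0 for Tph1 and 2.36 for Crxos. It was more negative by -0.65 for Hlf, -0.89 for Tac1, -0.83 for Glra2, -0.77 for Glra1, -1.10 for Serping1, -1.14 for Egr2 and -2.01 for Inhbb. For 13 of these 15 genes, all but Tph1 and Inhbb, the call was lost under at least 1 alternative. Over all genes 1.48% passed this test. Some of the 15 were named by the size of this same difference, so their count was partly set by the naming.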

How the results depend on the processing

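Among the genes named by rule that passed (96 for the Rorb-/- step, 43 and 15 for the differences from +/+ and from Rorb-/-;CrxpNrl), direction held under every alternative run except for Lyz1, whose age step was 0.005 (adjusted p = 0.985) and whose difference from +/+ was 0.167 (adjusted p = 0.668) without probe sets of shared sequence. Genes that did not pass could change sign: Nrl went from -0.14 to 0.15 without P14 replicate 3, and Cnga1 from 0.10 to -0.26 without P14 replicate 1. Of the 96 genes 77 kept the call under every alternative, as did 33 of 43 for the difference from +/+ and 2 of 15 for the difference from Rorb-/-;CrxpNrl. With no fold requirement 2719 genes changed in Rorb-/-, 2495 in +/+ and 5257 in Rorb-/-;CrxpNrl, and 495 and 270 differed from +/+ and from Rorb-/-;CrxpNrl. Without the dimmest 40% of genes 102 changed in +/+ and 70 differed from +/+. The count that differed from Rorb-/-;CrxpNrl was 43 with the mean of all probe sets, 231 with array weights and 9 in a fit of the compared arrays alone, and the cause was not tested. With 1 mouse left out the counts ran from 175 to 248 in Rorb-/-, 138 to 165 in +/+, 437 to 700 in Rorb-/-;CrxpNrl, 102 to 160 for the difference from +/+ and 28 to 209 for that from Rorb-/-;CrxpNrl.

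Replicate numbers were not taken as pairs: same-numbered P14 and P28 Rorb-/- arrays deviated together at r = 0.0799, 0.288, 0.226 and 0.217, and 2 of 4 correlated best with their own number. With the replicate block 198 genes changed in Rorb-/-, 157 in +/+ and 541 in Rorb-/-;CrxpNrl, and 140 and 86 differed from +/+ and from Rorb-/-;CrxpNrl. Genes near the lower quartile of an array have little room to fall, and those near its maximum little room to rise.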
